A study of Sus scrofa with 15 samples.

Results

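Glycolysis splits glucose into pyruvate in the cytosol and gives ATP without oxygen, and lactate dehydrogenase then converts pyruvate and lactate into one another. Fast muscle fibres carry large amounts of these enzymes, mostly as muscle isoforms, and the porcine Longissimus of the back is a muscle rich in such fibres. The transcripts described here are those of 10 enzymes: GPI, PFKM, ALDOA, TPI1, GAPDH, PGK1, PGAM2, ENO3, LDHA and LDHB. Members were taken as all non-control array probes that carried one of these names as gene name or in their description and were well above background on at least 7 of 15 arrays. Of the 10 genes, 9 had probes, and all 35 of those probes were well above background on all 15 arrays. They were 35 of 31984 tested probes, and 9 of 4190 tested genes when each gene was represented by its brightest probe. ALDOA, the muscle aldolase, was matched by 0 probes, so the aldolase step was not analysed here.

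RNA came from frozen Longissimus samples taken when the animals weighed 20 kg, in lines bred on residual feed intake, which is the feed eaten beyond what maintenance and growth are predicted to need. The low_RFI line (strain RFIneg) had 7 pigs and the high_RFI line (strain RFIpl) had 8 pigs, all fed ad libitum, with 1 pig on each array. The labels give neither sex nor litter, and they name no unselected line. The 4 slides each held both lines, and the array names number the pigs 1 to 8 (4 low_RFI and 4 high_RFI) or 55 to 62 (3 low_RFI and 4 high_RFI). Arrays had 61.7% to 79.5% of their probes above background, and 0 spots were saturated. The muscle label was checked against fibre markers, of which 10 of 12 fast and 11 of 12 slow ones were tested. The summed linear level of the fast markers was 5553 to 7321 times the array's 75th percentile in low_RFI pigs and 5663 to 7082 times in high_RFI pigs. In whole muscle, fewer fibres of a type and less RNA per fibre cannot be told apart.

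The level used throughout is the scanner's processed signal on a log2 scale, relative to the 75th percentile of its array, so 1 unit is a doubling relative to the array. Levels depend on each probe's own sequence and are compared between pigs, never between genes. The line comparison asked whether pigs bred for a different feed efficiency carried more or less of each enzyme's transcript.

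No glycolytic gene passed the test between the lines. With limma and Benjamini-Hochberg adjustment over all 4190 genes, 0 of the 9 genes passed at an adjusted p under 0.05, where 0.0239% of all genes passed. At an unadjusted p under 0.05 the count was also 0 of 9, against 7.09% of all genes. The lines overlapped for all 9 genes, while 0.167% of all genes had lines that did not overlap. A higher mean in low_RFI was seen for 6 of 9 genes, and for 54.9% of all genes. The median log2 difference over the 9 genes, low_RFI minus high_RFI, was 0.061, beside 0.015 over all genes. That median was 0.0096 without high_RFI replicate 5 and 0.13 with normexp background correction. Adjusted p over the 9 genes ran from 0.871 to 0.999 with limma.

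**Figure D1:**
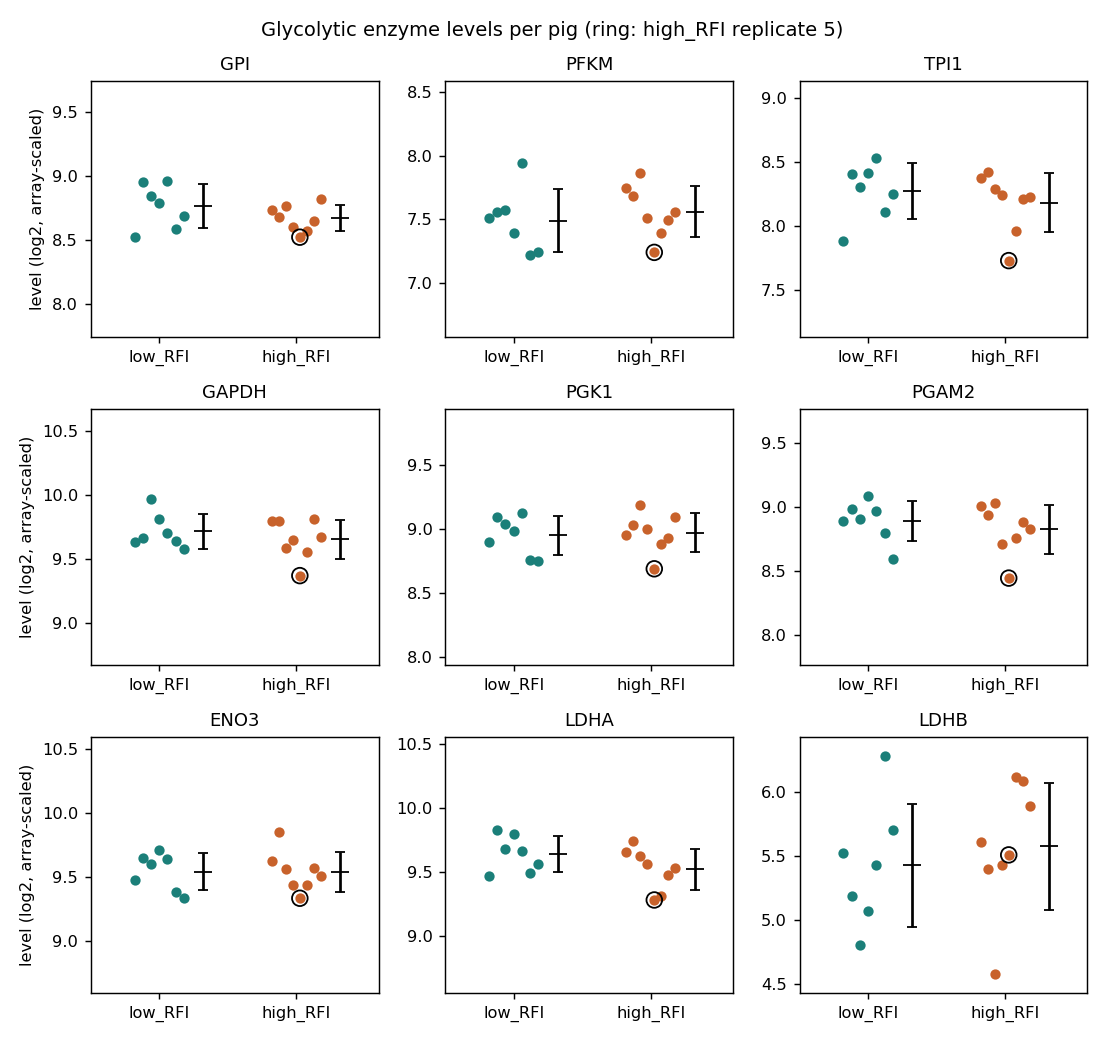
Level of each enzyme in every pig (vertical axes, log2 of the signal relative to the array's 75th percentile, each spanning 2 units), with low_RFI (n = 7) left of high_RFI (n = 8). Points are pigs in replicate order, bars are the mean ± SD, and the ring marks high_RFI replicate 5. The lines overlap in all 9 panels, and LDHB has the widest spread, with a range of 1.71.

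The first step after glucose phosphorylation is made by GPI, which turns glucose phosphate into fructose phosphate. Its 3 probes matched 1 accession, and all 3 had a higher mean in low_RFI. The sequences of GPI, PFKM and PGAM2 probes show stretches of transcript behind the measurements. The PGAM2 probe is the one used for its level, and for GPI and PFKM a brighter probe was used. The printed probes had log2 differences, low_RFI minus high_RFI, of 0.073 for GPI, -0.084 for PFKM and 0.064 for PGAM2.
GPI: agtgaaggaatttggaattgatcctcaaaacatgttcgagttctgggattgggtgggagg
PFKM: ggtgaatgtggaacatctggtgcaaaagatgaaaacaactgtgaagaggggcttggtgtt
PGAM2: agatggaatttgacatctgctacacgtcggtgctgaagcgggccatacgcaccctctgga

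GPI had a lowest, median and highest level of 8.52, 8.79 and 8.96 in low_RFI pigs, against 8.52, 8.66 and 8.82 in high_RFI pigs. The lowest values of both lines lay side by side, in low_RFI replicate 1 and high_RFI replicate 5, and the 2 highest pigs were both low_RFI. The log2 difference was 0.094 ± 0.082 (SE), with a 95% confidence interval of -0.079 to 0.27 (limma adjusted p = 0.918). The difference was 0.061 without low_RFI replicate 5 and 0.18 with normexp. As a ratio of low_RFI over high_RFI, the interval ran from 0.946 to 1.20.

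PFKM is the muscle phosphofructokinase, which adds the next phosphate and is the main control point of the pathway. Its level was 7.22, 7.51 and 7.94 (lowest, median and highest) in low_RFI pigs and 7.24, 7.53 and 7.86 in high_RFI pigs. Each line therefore held pigs at both ends: low_RFI replicates 6 and 5 were the lowest and the highest of all. Low_RFI minus high_RFI gave -0.071 ± 0.12 (SE) with an interval of -0.32 to 0.17 (limma adjusted p = 0.98). Among pigs numbered 1 to 8 PFKM differed by -0.19, and among pigs numbered 55 to 62 by 0.046. It was -0.15 without low_RFI replicate 5 and -0.026 without low_RFI replicate 6. Both of its probes had a lower mean in low_RFI.

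TPI1, triose phosphate isomerase, interconverts both three-carbon products of aldolase. Of its 5 probes, the pair below overlaps, and capitals mark the 23 bases they share. Their log2 differences were 0.15 and 0.096, and a brighter probe was used for the level. Another pair had identical sequences and was spotted as separate probes.
TPI1 first probe: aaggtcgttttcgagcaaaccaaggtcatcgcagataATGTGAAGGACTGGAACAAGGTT
TPI1 second probe: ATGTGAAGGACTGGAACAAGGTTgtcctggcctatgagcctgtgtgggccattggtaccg

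TPI1 had levels of 7.88, 8.31 and 8.54 (lowest, median and highest) in low_RFI pigs, against 7.73, 8.24 and 8.42 in high_RFI pigs. Low_RFI replicate 1 and high_RFI replicates 5 and 6 were the 3 lowest, and the other 12 pigs overlapped. The lines differed on the log2 scale by 0.090 ± 0.12 (SE), interval -0.16 to 0.34 (limma adjusted p = 0.964). The difference was -0.081 among pigs numbered 1 to 8 and 0.27 among pigs numbered 55 to 62. It was 0.025 without high_RFI replicate 5, 0.15 without low_RFI replicate 1 and 0.16 with normexp. All 5 probes had a higher mean in low_RFI, by 0.090 to 0.16. They moved as one over the pigs, with correlations between probes of 0.939 or more. The difference between the 2 probes of identical sequence had an SD of 0.042 over the pigs.

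GAPDH oxidises glyceraldehyde phosphate and is often used as a reference transcript. In the RefSeq annotation of Sscrofa11.1 it lies on the same chromosome as TPI1, with 23 listed genes between them. Its level was 9.58, 9.67 and 9.97 (lowest, median and highest) in low_RFI pigs and 9.37, 9.66 and 9.81 in high_RFI pigs. The medians were nearly the same, and the lowest and the highest pig came from different lines. The log2 difference was 0.061 ± 0.084 (SE), interval -0.12 to 0.24 (limma adjusted p = 0.976). It was 0.018 without low_RFI replicate 3 and 0.13 with normexp. The GAPDH level came from the probe matched by its description. The other GAPDH probe, matched by gene name, gave -0.0047 ± 0.070 (SE). The 2 GAPDH probes correlated at 0.631 over the 15 pigs, the lowest value between probes of any of these enzymes, and they match different accessions.

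PGK1, phosphoglycerate kinase, makes the first ATP of the payoff phase. Its level was 8.75, 8.98 and 9.13 (lowest, median and highest) in low_RFI pigs, against 8.69, 8.98 and 9.18 in high_RFI pigs. The lines covered nearly the same range. Low_RFI minus high_RFI gave -0.023 ± 0.087 (SE), interval -0.21 to 0.16 (limma adjusted p = 0.998), and 2 of its 6 probes had a higher mean in low_RFI. Its sign turned with normexp background correction, to 0.058.

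PGAM2 is the muscle form of phosphoglycerate mutase, which moves the phosphate within phosphoglycerate. Its single probe read 8.59, 8.90 and 9.08 (lowest, median and highest) in low_RFI pigs and 8.44, 8.85 and 9.03 in high_RFI pigs. Again the lowest pig of all was high_RFI replicate 5, and the remaining pigs overlapped. The lines differed on the log2 scale by 0.064 ± 0.097 (SE), interval -0.14 to 0.27 (limma adjusted p = 0.98), and 0.0096 without that pig.

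ENO3, the muscle enolase, removes water to make phosphoenolpyruvate. Among its 3 probes the following pair shares the 41 bases in capitals, so these probes sample nearly the same stretch of transcript. Past the capitals their positions still overlap, but the bases there do not match one for one. The second probe was used for the level.
ENO3 first probe: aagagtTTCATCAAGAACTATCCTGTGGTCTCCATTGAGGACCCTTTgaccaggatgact
ENO3 second probe: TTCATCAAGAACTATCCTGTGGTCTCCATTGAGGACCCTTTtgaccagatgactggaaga

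ENO3 had levels of 9.33, 9.60 and 9.71 (lowest, median and highest) in low_RFI pigs, against 9.33, 9.54 and 9.86 in high_RFI pigs. Its line means were the closest of the 9 genes, at 9.54 in both. The log2 difference was 0.0023 ± 0.087 (SE), interval -0.18 to 0.19 (limma adjusted p = 0.999). The sign of so small a difference changed under 11 of 30 alternative settings, as when high_RFI replicate 5 was left out (-0.027). Some of the 30 settings could not move it.

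LDHA, the lactate dehydrogenase subunit of fast muscle, had the smallest p of the 9 genes. Its level was 9.47, 9.66 and 9.83 (lowest, median and highest) in low_RFI pigs and 9.28, 9.54 and 9.74 in high_RFI pigs. The 2 highest pigs were low_RFI and the 2 lowest high_RFI, and the 11 others were mixed. Low_RFI minus high_RFI gave 0.12 ± 0.087 (SE), interval -0.065 to 0.30 (limma adjusted p = 0.871, unadjusted p = 0.189), with the low_RFI pig higher in 40 of 56 pairs. It was 0.048 among pigs numbered 1 to 8 and 0.17 among pigs numbered 55 to 62.

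LDHB, the subunit that prevails in heart and oxidative fibres, had the widest spread of the 9 genes. LDHB has 2 entries in the RefSeq gene table, and which of them its 12 probes of 1 accession measure was not settled here. The pair below shares the 32 bases in capitals. Their log2 differences were -0.19 and -0.17, and a brighter probe was used for the level.
LDHB first probe: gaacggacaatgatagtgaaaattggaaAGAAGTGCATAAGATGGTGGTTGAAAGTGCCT
LDHB second probe: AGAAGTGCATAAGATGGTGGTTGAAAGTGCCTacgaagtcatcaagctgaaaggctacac

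LDHB had levels of 4.80, 5.43 and 6.29 (lowest, median and highest) in low_RFI pigs, against 4.58, 5.56 and 6.12 in high_RFI pigs. Both lines ran over nearly the whole range. The lines differed on the log2 scale by -0.15 ± 0.24 (SE), interval -0.65 to 0.35 (limma adjusted p = 0.98), and all 12 probes had a lower mean in low_RFI, by 0.12 to 0.19 in size. Those probes share their RNA and are not independent, and the lowest correlation between any 2 of them was 0.971. The difference was -0.044 without low_RFI replicate 3 and -0.29 without high_RFI replicate 3, the lowest pig of each line, and -0.064 with normexp.

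**Figure D2:**
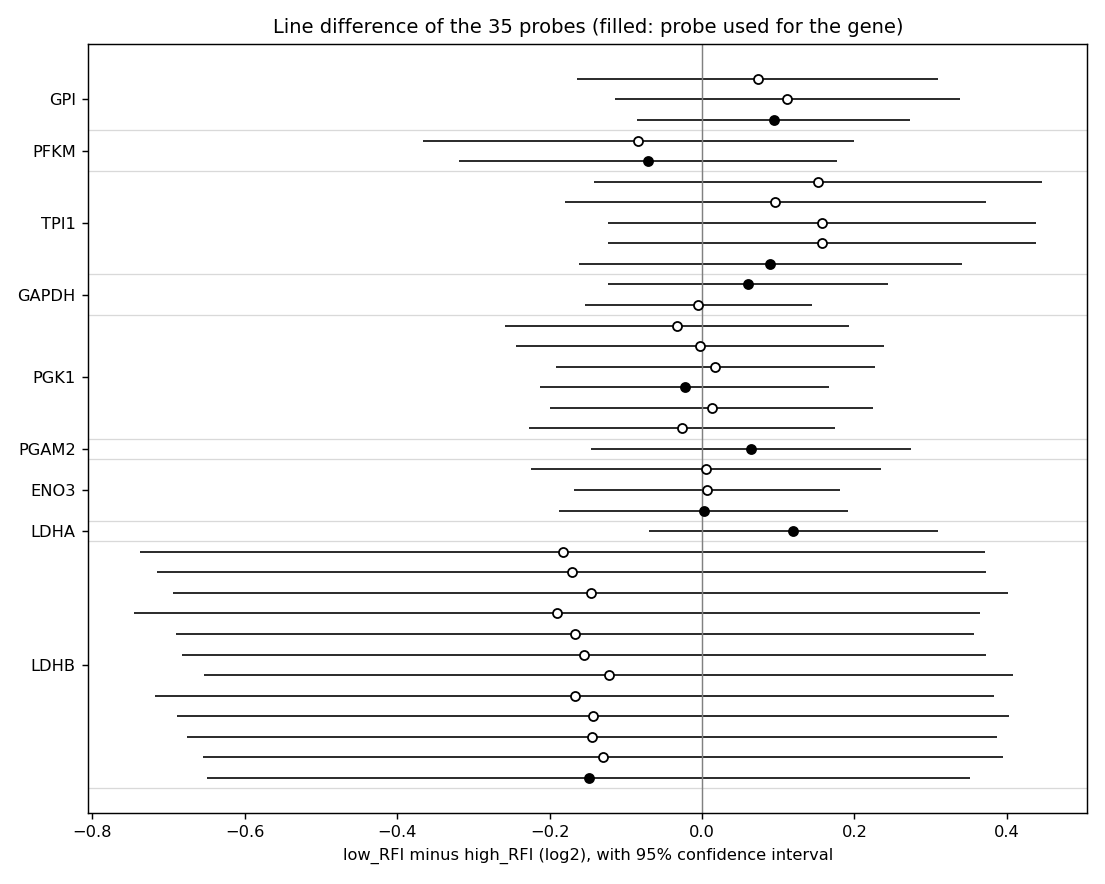
Log2 difference of low_RFI minus high_RFI for each of the 35 probes (horizontal axis), grouped by enzyme in pathway order, with 95% confidence intervals from limma. Filled points are the probes that represented the gene. All intervals include 0, and the intervals of the 12 LDHB probes are the widest.

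Over probes, limma called 0 of 35 members, as it called 0 of 31984 probes (0%). At an unadjusted p under 0.05 it had 0 of 35 members, against 6.64% of all probes, and 16 of 35 had a higher mean in low_RFI, against 53.4% of all. Of the 35, 12 were LDHB probes, which are not independent, and all 12 had a lower mean in low_RFI. The smallest unadjusted p of a member probe was 0.200, for LDHA. Within pigs numbered 1 to 8, 4 of the 9 genes had a higher mean in low_RFI, and within pigs numbered 55 to 62 there were 6 of 9. Within the 4 slides the count was 5, 5, 8 and 4 of 9.

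The spread between pigs set LDHB apart from the 8 other enzymes. Its SD within lines was 0.49, and its highest pig was 3.27-fold above its lowest. For the 8 others the SD ran from 0.14 for GPI to 0.22 for TPI1, and the fold between extreme pigs from 1.35 to 1.75. The median SD over all genes was 0.26. LDHB was more variable than 84.1% of genes and GPI more variable than 8.59%.

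**Figure D3:**
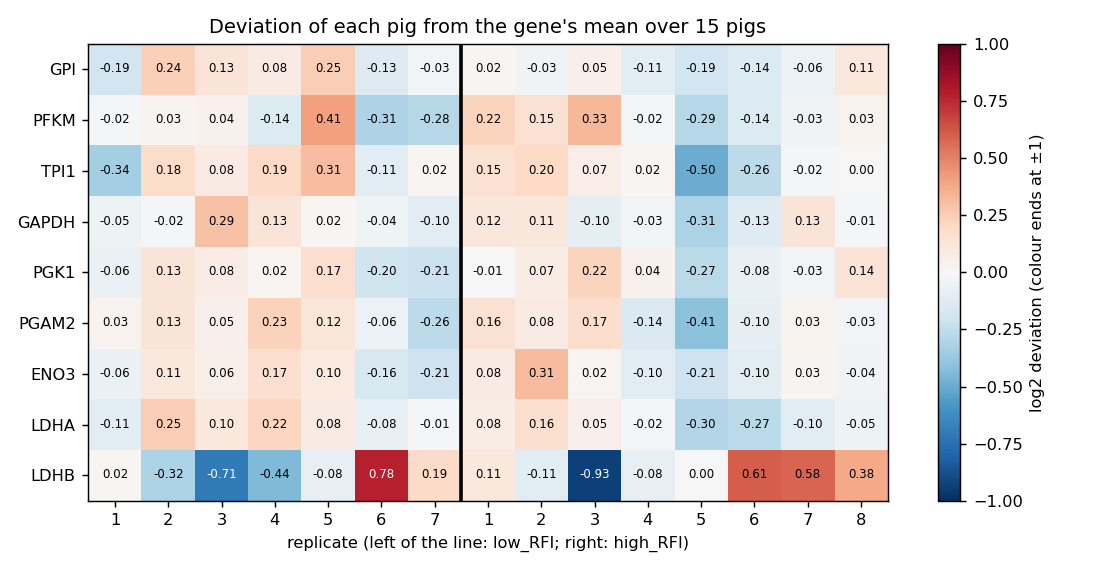
Log2 deviation of every pig (columns, low_RFI left of the line and high_RFI right of it) from each gene's mean over the 15 pigs, with genes in pathway order in rows. Red is above and blue below the mean. In high_RFI replicate 5 the 8 rows above LDHB are all below the mean, and the LDHB row follows another order of pigs.

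The 8 enzymes other than LDHB varied together from pig to pig. Over the 15 pigs, all 28 of their 28 pairs correlated above 0, with a median Pearson r of 0.673 and a range of 0.364 to 0.881. With line means removed the median was 0.696, and without high_RFI replicate 5 it was 0.559. Within pigs numbered 1 to 8 it was 0.395 (25 of 28 pairs above 0), and within pigs numbered 55 to 62 it was 0.751 (28 of 28). All 8 pairs of LDHB with these enzymes correlated below 0, with a median of -0.447. This was weaker within the sets of pig numbers, with a median of -0.252 among pigs numbered 1 to 8 (8 of 8 below 0) and -0.161 among pigs numbered 55 to 62 (6 of 8). With the means of the sets removed it was -0.216 (7 of 8). The median over all pairs of tested genes was 0.0051, and over pairs of 105 other genes at least as bright it was 0.329. Above 0 were 4317336 of 8530515 pairs of tested genes and 4617 of 5460 pairs of the bright genes. These correlations describe 15 arrays that share their scaling. With quantile normalization the median over the 28 pairs was 0.323, with 25 above 0, and that of the LDHB pairs was -0.549. With normexp the medians were 0.733 and -0.212, and 7 of 8 LDHB pairs were below 0.

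The pig lowest for the pathway was high_RFI replicate 5. Averaged over the 9 genes, the deviation from each gene's mean was 0.014 at the median in low_RFI pigs, between -0.099 and 0.15, against a median of 0.022 in high_RFI pigs, between -0.27 and 0.11. High_RFI replicate 5 was that lowest value, and the next pig was low_RFI replicate 7 at -0.099. Over the 8 genes without LDHB it stood at -0.31, and the next, high_RFI replicate 6, at -0.15. It was the lowest pig for 6 of 9 genes and the second lowest for PFKM and ENO3.

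Step by step, the log2 difference of this pig from the mean of the 14 others was -0.20 for GPI, -0.31 for PFKM, -0.53 for TPI1 and -0.34 for GAPDH. It was -0.29 for PGK1, -0.44 for PGAM2, -0.22 for ENO3 and -0.32 for LDHA. The shortfall was thus present at every measured step and widest at TPI1, where this pig had 0.692 of the level of the others. LDHB did not share it, with a difference of 0.0016 and rank 8 of 15. For TPI1 and PGK1 the pig was lowest on every probe (5 of 5 and 6 of 6). For GAPDH the deviation was -0.31 on the probe used for the level and -0.035 on the other.

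Other measures of the same array stood apart as well. High_RFI replicate 5 had the largest share of probes well above background, 79.5%. Its 105 other genes at least as bright as the dimmest of the 8 enzymes had a median deviation of -0.18, also the lowest of the 15 pigs. The summed linear level of 6 tested leukocyte markers (of 7 on the array and 8 listed) was 21.3 in this pig. The same sum was 3.77 to 10.3 in low_RFI pigs and 3.92 to 8.68 in the 7 other high_RFI pigs. CD4 was on the array but was not tested, as it did not pass the filter on background. The mean deviation of the adipocyte markers was the highest of all pigs (0.76, 6 of 8 listed genes tested), and those of the fibroblast and matrix markers (-0.49, 4 of 6 tested) and the endothelial markers (-0.16, 6 of 6 tested) the lowest. By summed level the fibroblast and matrix markers were not the lowest, at 93.4 in this pig, within 87.5 to 153 in low_RFI pigs and 85.3 to 136 in the 7 other high_RFI pigs. Nor were the endothelial markers, with a sum of 20.9 in this pig and 20.7 in high_RFI replicate 3. The erythrocyte gene HBB deviated by 1.44, the second highest. The nerve and Schwann cell markers ranked 9 of 15. The fast and slow fibre lists were both at the third lowest, with mean deviations of -0.20 and -0.38. Their part in the low enzyme levels was not tested.

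How low this pig stood depended on the scaling. Its mean over the 9 genes was -0.095 with quantile normalization, where it was still the lowest. Over the 8 genes without LDHB it was then at -0.13, beside low_RFI replicate 6 also at -0.13. With normexp background correction it was -0.18, and high_RFI replicate 4 was lower at -0.41. With the log2 values in the authors' deposited table it was -0.29. The mean of the 8 enzymes correlated over the pigs with the median of the 105 bright genes at 0.847, and at 0.067 with quantile normalization.

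**Figure D4:**
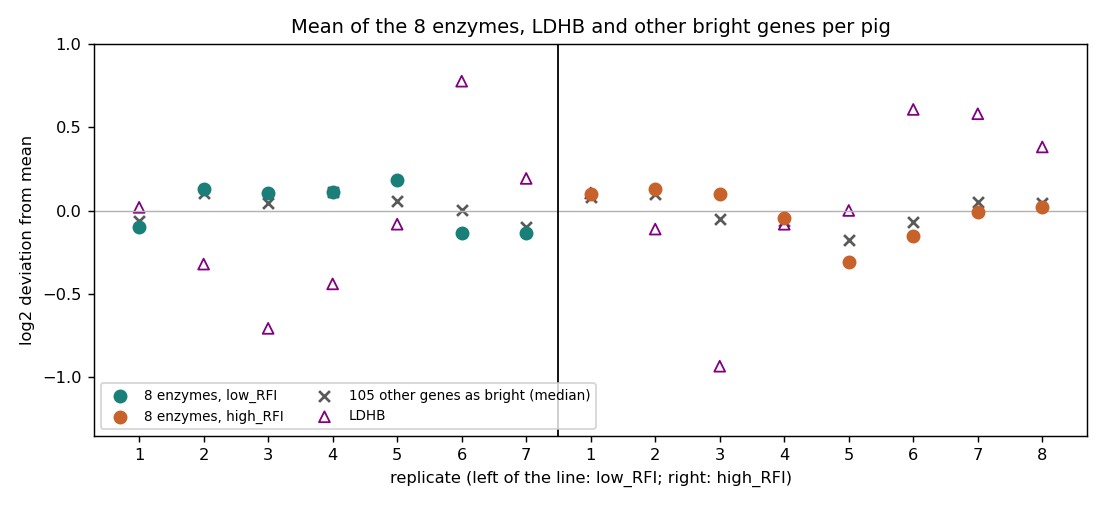
Mean log2 deviation of the 8 enzymes other than LDHB for each pig (circles), with LDHB (triangles) and the median of 105 other genes at least as bright (crosses), low_RFI left of the line and high_RFI right of it. High_RFI replicate 5 has the lowest circle, at -0.31, and the lowest cross, at -0.18, while its LDHB lies at the mean.

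Set beside fibre markers, the 8 enzymes followed the fast list and LDHB the slow list. The mean of the 8 enzymes correlated with the mean of the 10 fast fibre genes over 15 pigs (Pearson r 0.864, Spearman rho 0.886). Against the 11 slow fibre genes the values were r -0.14 and rho -0.15. The fast list r was 0.849 without the 2 pigs farthest from the median, 0.875 among pigs numbered 1 to 8 and 0.920 among pigs numbered 55 to 62. With quantile normalization r was 0.684 for the fast list and -0.594 for the slow list. The 8 enzymes correlated nearly as closely with the median of the 105 other bright genes (r 0.847), but at 0.067 with quantile normalization. Fast fibre genes were not taken out of those 105, so the 2 relations are not separate. These enzymes were chosen with results in view, so no p is given for their mean.

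LDHB correlated with the slow list at r 0.808 and rho 0.693 over 15 pigs. Without the 2 pigs farthest from the median of the slow list r was 0.631. It was 0.856 among pigs numbered 1 to 8, 0.841 among pigs numbered 55 to 62, 0.896 in low_RFI and 0.733 in high_RFI, and from 0.802 to 0.832 under the other scalings. The relations of LDHB, too, were chosen with results in view and are given with no p. With the fast list LDHB correlated at r -0.609 and rho -0.679, and r was -0.582 without the 2 farthest pigs, -0.372 with normexp and -0.824 with quantile normalization. Within the sets of pig numbers that r was only -0.17 and -0.40.

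**Figure D5:**
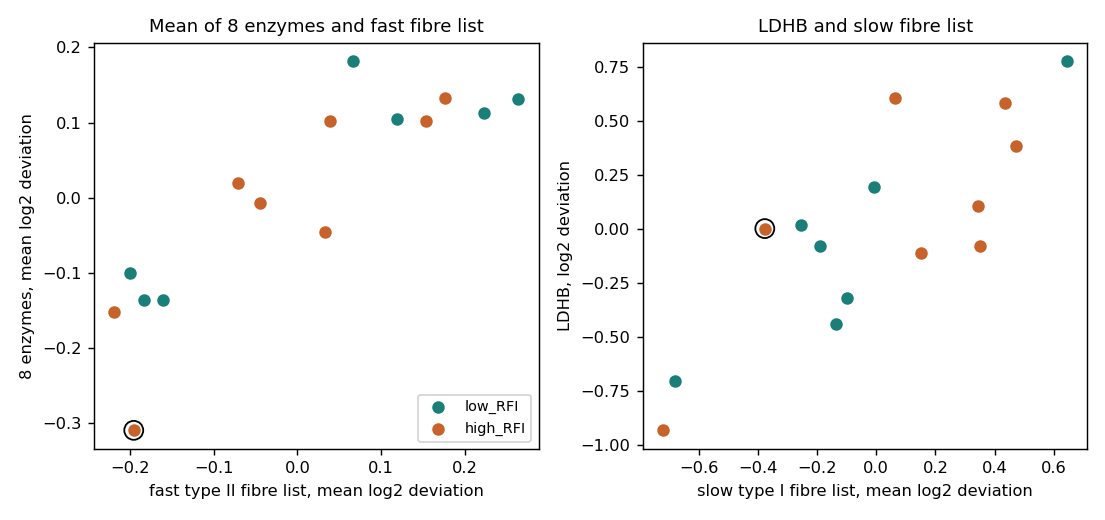
Left, mean log2 deviation of the 8 enzymes against that of the fast fibre list. Right, log2 deviation of LDHB against the mean of the slow fibre list. Each point is a pig, coloured by line, and the ring marks high_RFI replicate 5, which is low for the 8 enzymes and lies at the mean for LDHB.

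LDHB also had other means in each set of pig numbers. Its mean was 5.15 in low_RFI and 5.25 in high_RFI among pigs numbered 1 to 8. Among pigs numbered 55 to 62 it was 5.81 in low_RFI and 5.90 in high_RFI. The line differences within the sets were -0.11 and -0.097. The mean deviation of the 8 other enzymes ran the other way. It was 0.062 in low_RFI and 0.073 in high_RFI among pigs numbered 1 to 8, against -0.030 in low_RFI and -0.11 in high_RFI among pigs numbered 55 to 62. The difference between the sets was not tested. The log2 ratio of LDHB to LDHA on the same array, centred on its mean over pigs, ran from -0.81 through a median of -0.16 to 0.86 in low_RFI pigs, against -0.98, 0.16 and 0.87 in high_RFI pigs. The lines overlapped over nearly the whole range.

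Among the genes whose pattern over the pigs was most like the mean of the 9 enzymes were PRTG (r 0.905), the mitochondrially encoded COX2 (0.861), the fast fibre troponin TNNI2 (0.837) and PFKFB1 (0.831), an enzyme that sets the amount of the activator of phosphofructokinase. Of 4122 genes ranked, the most opposite were the amino acid transporter SLC7A7 (-0.891), OSTF1 (-0.885), the pattern receptor TLR2 (-0.854), the macrophage receptor CD163 (-0.848) and ANXA2 (-0.832). In high_RFI replicate 5, SLC7A7, TLR2, CD163 and ANXA2 deviated by 1.13 to 1.71, and OSTF1 by 0.30. Most like LDHB were the slow fibre genes MYL2 (0.913), TNNI1 (0.903) and MYOZ2 (0.895), with FSCN1 (0.892) and the fatty acid binding protein FABP3 (0.868). MYL2, TNNI1 and MYOZ2 belong to the slow list itself, and TNNI2 to the fast list. Most opposite to LDHB were PAIP1 (-0.873), TTC13 (-0.841), NECTIN1 (-0.823), UBE2Q1 (-0.815) and DRG1 (-0.792). All of these r values are descriptions over 15 pigs.

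Of 31 other glycolysis and related genes listed, 14 were on the array and 12 were tested. Limma called 0 of the 12, against 0.0239% of all genes, and 0 were at an unadjusted p under 0.05, against 7.09%. A higher mean in low_RFI was seen for 4 of the 12, against 54.9% of all genes. Their median log2 difference was -0.042, against 0.015 over all genes. PGM1, which links glycogen to the pathway, had the smallest p: its level was 6.77, 8.44 and 8.54 (lowest, median and highest) in low_RFI pigs and 8.21, 8.45 and 8.70 in high_RFI pigs. The medians were nearly equal and low_RFI replicate 7 lay far below. The log2 difference of -0.50 ± 0.25 (SE, limma adjusted p = 0.748) was -0.30 without that pig and -0.34 without low_RFI replicate 2. Leaving out both pigs was not tested. With the mean of the PGM1 probes the difference was -0.17.

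FBP1, which runs the phosphofructokinase step backwards, was at -2.58, -2.35 and -1.58 in low_RFI pigs, against -2.47, -1.83 and -0.84 in high_RFI pigs (log2 difference -0.44 ± 0.23 SE, limma adjusted p = 0.754). Its highest pig was high_RFI replicate 5, and the lines overlapped. The FBP1 difference was -0.31 without that pig and -0.56 without low_RFI replicate 6. ALDOC, the brain-type aldolase, differed by 0.36 ± 0.33 (SE) and ADPGK, a glucokinase that uses ADP, by -0.12 ± 0.12 (SE), with limma adjusted p of 0.925 and 0.943. Without high_RFI replicate 3 the differences were 0.16 and -0.043. PKM, pyruvate kinase, which makes pyruvate from the product of ENO3, was chosen after its values were seen. Its log2 difference was 0.082 ± 0.12 (SE, limma adjusted p = 0.979), and its lowest pig was again high_RFI replicate 5, with a deviation of -0.65. Without that pig the difference was -0.0046.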

How the data were processed

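Per the file headers, the deposited scanner files hold intensity values from Feature Extraction 10.7.3.1, background-subtracted and detrended, with no normalization between arrays. Flags for spots well above background, non-uniform or saturated came from the same files, as other columns, per the file headers. The authors also deposited log2 values, which equal log2 of the signal minus each array's median, and these served as an alternative. Per the labels, 150 ng of RNA per pig was labelled with Cy3.

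Non-uniform spots were left out, and levels were scaled to the 75th percentile. Probes were tested with at least 7 arrays well above background and at least 4 values per line (31984 of 43603). Each gene took its probe of highest mean level. Low_RFI was compared with high_RFI, two-sided, by limma 3.58.1 in R 4.3.3, with Benjamini-Hochberg adjustment over the whole table at 0.05, and the fit was tested on simulated data. Correlations over pigs are given as descriptions. Names came from the files and from RefSeq tables of Sscrofa11.1, and no genome was used. Probe sequences came from the array files.

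The members and lists were chosen with earlier results of these data known. The text names all 10 members, the 4 other glycolysis genes of smallest p, and the 5 genes of highest and 5 of lowest r with the members' mean and with LDHB, of which 1 gene is not reported here. PKM, outside this rule, was chosen after its values were seen. Correlations under other scalings and within sets of pig numbers, the brightness comparison and the mean without LDHB were added after seeing the data. The p-values set the line difference against the spread between pigs within lines. The pigs are replicates of their line, not of the breeding on feed intake. The number of arrays limits the precision (median SE of a gene's log2 difference 0.13).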

Additional observations from a re-analysis of the deposited data

Results flagged for a closer look

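Of 22 combinations of line and gene or mean that were checked for a pig far from its line mates, 2 stood out. Chance would mark about 1 in 20 if the combinations were independent, but they share pigs and correlated genes. LDHB in high_RFI replicate 3 was at 4.58, with the nearest high_RFI pig at 5.40. The mean over the 9 enzymes in high_RFI replicate 5 was -0.27, with the nearest high_RFI pig at -0.067. In both, the gap divided by the range of the line (0.534 and 0.546) was just above the critical value of 0.526 for 8 pigs. The flagged mean includes LDHB, which deviated by 0.61 in high_RFI replicate 6. Over the 8 enzymes without LDHB, high_RFI replicate 5 was at -0.31 and the nearest high_RFI pig, replicate 6, at -0.15. The highest high_RFI pig was then at 0.13, so the gap was narrower, the range wider and their ratio below 0.526. The flag on the mean thus depended on including LDHB. High_RFI replicate 5 had already been picked as the lowest pig from these same values, so its flag adds no separate support.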

How the results depend on the processing

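Under 30 alternatives, limma called 0 of the 9 enzymes each time, and 5 to 7 of the 9 had a higher mean in low_RFI (6 in the main setting). Leaving out 1 pig at a time moved the median log2 difference between 0.0096 (without high_RFI replicate 5) and 0.083 (without low_RFI replicate 7), and the other alternatives between 0.028 and 0.13. GPI, PFKM, TPI1, GAPDH, PGAM2, LDHA and LDHB kept the sign of their difference under all 30. For GAPDH the main setting used the probe matched by description, and its other probe gave -0.0047. Some of the 30 could not turn a sign. Changing the threshold of adjusted p, the filter on background or limma's fit to a trended and robust one left every difference of the 9 as it was. ENO3 reversed to -0.0057 with quantile normalization, -0.0089 with a block for the sets of pig numbers and -0.0025 with the replicate block, and ranged from -0.027 to 0.047 when 1 pig was left out. PGK1 reversed to 0.058 with normexp, and ranged from -0.063 to 0.011 when 1 pig was left out. PKM ranged from -0.0046 to 0.13 when 1 pig was left out, and was 0.16 with normexp. The level of high_RFI replicate 5 moved to -0.095 with quantile normalization. Replicate numbers did not pair the pigs: correlations of deviations ran from -0.03 to 0.32 and 1 of 7 numbers correlated best with its own. The replicate block left out high_RFI replicate 8, whose number has no low_RFI pig. With this block, 0 were called, 5 of 9 were higher in low_RFI and the median was 0.063. Leaving out high_RFI replicate 8 with no block gave the same differences, including -0.0025 for ENO3. The causes of these changes were not tested. The 35 probes were well above background on all arrays, but the values still changed with the normexp setting. That setting started from each spot's mean signal and background rather than the processed signal, added an offset of 50 and rescaled the arrays. With it the median difference was 0.13 and high_RFI replicate 4 was the lowest pig, at -0.41.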
